A study of Mus musculus with 8 samples.

Results

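A set of 9 genes that write, copy, remove or give access to DNA methylation was followed through the embryonic mouse kidney, with its members picked by gene symbol after earlier results of these data were known: *Dnmt1*, *Uhrf1*, *Hells*, *Dnmt3a*, *Dnmt3b*, *Tet1*, *Tet2*, *Tet3* and *Tdg*. All 9 of 9 were found by symbol among the 32285 genes of the count matrix. They were described across kidney cell classes defined by marker genes and compared between mice with and without *Trim28* in the nephron lineage.

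In mammals, methyl groups are placed on cytosines that stand before guanines, mostly to keep promoters, imprinted genes and retroelements silent. New methylation is set by the de novo enzymes Dnmt3a and Dnmt3b. At each round of replication Uhrf1 binds hemimethylated DNA and brings in Dnmt1, which copies the pattern onto the new strand, while the helicase Hells opens chromatin for them. Removal starts with the dioxygenases Tet1, Tet2 and Tet3, which oxidise the methyl group, and is completed when the glycosylase Tdg cuts out the oxidised base for base excision repair. *Trim28* encodes the corepressor that zinc finger proteins recruit to retroelements and imprinted regions, where it brings in histone and DNA methylation.

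The cells came from a single pool of kidneys of 4 male embryos, aged E17.5 by the labels and E18.5 by the paper. Mice 1 and 2 (ko) carried *Trim28* Δ/Δ, made from the floxed allele by a Six2-cre transgene that is active in nephron progenitors and inherited by the nephron epithelium, and mice 3 and 4 (wt) were *Trim28* f/f. The labels do not say whether the f/f mice carried the transgene, and nothing but the tags tells the mice apart, so that n = 2 for each genotype. The p-values rest on the spread between these animals, which the fit shares in part across genes (14.7 degrees of freedom in nephron progenitor-like cells). Bulk RNA from 6 newborn kidneys, part of the same series, was not analysed here. A cell multiplexing tag assigned 7363 cells to a mouse, 1316 and 1491 from the ko and 2749 and 1807 from the wt kidneys, with a median of 16386 to 17354 UMIs (unique molecules counted) per cell.

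The promoters of 3 members held a sequence of the kind bound by E2F factors, the regulators of S-phase genes, and these sites are shown because the same 3 genes were those that differed most between cycling and resting cells below. The 4 motifs searched were TTTCGCGC, TTTGGCGC, TTTCCCGC and TTTGCCGC, on both strands of the 250 bases before each annotated start (RefSeq, GRCm38.p6). A match stood in 3 of 9 members, in 8 of the 29 S-phase genes with a window (27.6%) and in 2.16% of 27025 genes. The matches are in capitals, 5′ to 3′ on the strand of the gene, at chr9:20952824-20952853, chr17:56304117-56304146 and chr19:38930917-38930946.
Dnmt1: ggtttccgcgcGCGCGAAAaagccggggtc
Uhrf1: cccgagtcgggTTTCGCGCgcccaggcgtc
Hells: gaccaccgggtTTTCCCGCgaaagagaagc
The match of *Dnmt1* lay 219 to 212 bases before 1 of its 3 annotated starts, in a window that overlaps exons of the gene, and that of *Uhrf1* 185 to 178 bases before 1 of 2 starts. The windows of their other starts held none. That of *Hells* lay 62 to 55 bases before its start, in a window that also overlaps an exon. Such a match describes the letters of the window and not the binding of a factor.

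Clustering gave 23 clusters, of which 18 were named from markers as 16 classes, and 20 classes had at least 10 cells in every mouse (16 named and the unnamed clusters 5, 6, 8 and 14). The nephron lineage was represented by nephron progenitor (NPC)-like, renal vesicle (RV)-like, S-shaped body (SSB)-like, early proximal tubule (ErPT)-like, proximal tubule (PT)-like, loop of Henle (LOH)-like, distal tubule (DT)-like and podocyte-like cells. Cluster 8 was led by *Six2* and *Wnt4*, cluster 5 by *Spon1* and *Fgf8*, cluster 6 by *Aadat* and *Cryab*, and cluster 14 by *Pdgfrb* and *Ebf1*. The SSB-like cluster held 7 raised markers of its type, but its leading genes were those of cell division (*Ube2c*, *Cenpf*, *Top2a*), and all of its cells, like those of clusters 8 and 14, were called S or G2/M. The RV-like cluster held 6 raised markers of its type, but *Wt1*, *Npr3* and *Ndnf* were among its leading genes and podocyte was the next type by score. Of the collecting duct (CD)-like cells, the 176 of cluster 15 came from mouse 3 except for 1. In all, ko mice and wt mice gave uneven numbers of cells in several classes, with 14 NPC-like cells in mouse 1 and 209 in mouse 4.

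*Trim28* itself was lower in the ko mice in 10 of the 20 classes (edgeR quasi-likelihood test, Benjamini-Hochberg adjusted p below 0.05), where 0.149% of all gene tests were called lower. The 3′ UMIs lie outside the floxed segment and do not show the deletion itself. Its log2 change (ko over wt) was −2.24 in NPC-like cells, −2.89 in cluster 8, −2.40 in SSB-like and −1.52 in PT-like cells. It was −1.50 in podocyte-like cells (adjusted p = 0.303), 0.01 in stroma-like and −0.09 in endothelial-like cells.

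The 3 genes of maintenance methylation shared much of their order over the classes. All 3 were among the variable genes used for clustering, so that the classes were not defined independently of their levels. They were low in podocyte-like and PT-like cells. High levels were found in classes whose cells were all in S or G2/M, and also in RV-like and UB-like cells, which were cycling in part. Erythroid-like cells were an exception, with 48.3% to 59.1% of cells in S or G2/M and *Dnmt1* at 23.0 ± 11.5 CPM and *Hells* at 24.1 ± 13.9 CPM. All levels are given as UMIs of a gene per 1000000 UMIs (CPM) of the cells of a class summed per mouse, with the SD over 4 mice. Erythroid-like cells were led by globin genes (*Hbb-bt*, *Hba-a1*), whose UMIs lower the CPM of all other genes by an amount not measured here. They were also the lowest class for *Dnmt3a*, *Dnmt3b*, *Tet2*, *Tet3*, *Tdg* and *Trim28*, so that low ends in these cells carry this limit. *Dnmt1* (chr9:20907209-20959888, minus strand) was highest in the Pdgfrb-positive cluster 14 (137 ± 2.43 CPM), cluster 8 (135 ± 14.7 CPM) and SSB-like cells (124 ± 16.2 CPM). In cluster 8 its levels were 121 and 146 CPM in the ko and 123 and 148 CPM in the wt mice, which overlapped. Its lowest levels were those of podocyte-like (11.7 ± 5.73 CPM) and PT-like cells (16.6 ± 3.20 CPM), so that the ends of the order lay 11.7-fold apart. *Uhrf1* (chr17:56303321-56323486, plus strand) was highest in cluster 8 (89.5 ± 15.7 CPM) and in ureteric bud (UB)-like cells (88.0 ± 25.9 CPM) and lowest in PT-like cells (6.98 ± 2.29 CPM). *Hells* (chr19:38930915-38971051, plus strand) had its highest means in RV-like cells (109 ± 49.3 CPM) and cluster 8 (107 ± 12.8 CPM) and its lowest in intercalated-like cells (5.56 ± 7.30 CPM). Among RV-like cells *Hells* stood at 60.1 and 150 CPM in the ko and 72.6 and 153 CPM in the wt mice, so that mice of the same genotype differed by more than the genotypes did. In the order of the 20 classes, neighbours did not differ beyond the spread over mice: their ranges were separate in 1 of 19 neighbouring pairs for *Dnmt1* and in 0 of 19 for *Uhrf1* and *Hells*.

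The de novo enzymes followed other orders. *Dnmt3a* (chr12:3806007-3914443, plus strand) varied least among the methyltransferases, with a 4.05-fold range from 35.6 ± 12.8 CPM in erythroid-like cells to 144 ± 22.3 CPM in CD-like cells. In CD-like cells the ko mice had 153 and 168 CPM and the wt mice 116 and 138 CPM. The 178 CD-like cells of mouse 3 were nearly all of cluster 15, and without that mouse the mean was 153 CPM. Intercalated-like cells came next (111 ± 23.1 CPM) and PT-like cells were low (44.4 ± 4.28 CPM). *Dnmt3b* (chr2:153649450-153687730, plus strand) rested on few molecules, with 1099 UMIs in all 20 classes together. Its highest mean was in endothelial-like cells, at 18.9 and 22.8 CPM in the ko and 18.04 and 13.5 CPM in the wt mice, followed by DT-like cells (13.7 ± 4.06 CPM). Endothelial-like cells were therefore near the top for *Dnmt3b* but 17th of 20 for *Dnmt3a* (64.4 ± 9.31 CPM).

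The 3 dioxygenases differed in where they were high. *Tet1* (chr10:62804570-62908996, minus strand) had its highest means in cluster 8 (49.2 ± 10.6 CPM) and cluster 5 (48.9 ± 7.88 CPM). UB-like (47.8 ± 13.8 CPM) and RV-like cells (47.5 ± 9.31 CPM) followed, and all overlapped. In NPC-like cells *Tet1* averaged 23.7 CPM in the ko and 45.3 CPM in the wt mice, below the 37.5 and 49.0 CPM of stroma-like cells. It was low in PT-like (13.7 ± 1.32 CPM), endothelial-like (15.2 ± 3.85 CPM) and immune-like cells (10.0 ± 6.29 CPM). *Tet2* (chr3:133463679-133545139, minus strand) was highest in LOH-like (71.7 ± 22.5 CPM) and DT-like cells (70.5 ± 14.5 CPM), followed by stroma-like cells (62.7 ± 24.9 CPM). Its means of 27.7 ± 17.2 CPM in cluster 8 and 27.9 ± 14.2 CPM in NPC-like cells lay below its level in free RNA (29.2 CPM, described below). *Tet3* (chr6:83362373-83459084, minus strand) stood apart in podocyte-like cells, where it had 193 and 158 CPM in the ko and 222 and 158 CPM in the wt mice. No mouse reached these levels in intercalated-like cells, which followed at 94.3 ± 6.29 CPM, and *Tet3* was lowest in PT-like (32.9 ± 2.50 CPM) and erythroid-like cells (16.4 ± 8.43 CPM). Podocyte-like cells thus had the highest *Tet3* and the lowest *Dnmt1* of the 20 classes.

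*Tdg* (chr10:82629828-82650799, plus strand) varied least of all, by 2.86-fold, from 31.3 ± 15.4 CPM in erythroid-like cells to 89.6 ± 12.3 CPM in cluster 8 and 78.8 ± 7.50 CPM in SSB-like cells. Its counts are uncertain, because the pseudogene Tdg-ps on chromosome 15 is 98.8% identical to 2845 of the 2959 bases of a *Tdg* transcript, and its reads may have been counted as *Tdg* or reads that match both left uncounted. *Tdg* overlaps *Glt8d2*, *Dnmt3a* overlaps *Dnmt3aos*, *Dnmt3b* overlaps *Dnmt3bos*, *Tet2* overlaps *Gm42567* and *Tet3* overlaps *B230319C09Rik*, each on the opposite strand, and no source used here gives the strand setting of the counting.

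Free RNA was estimated from 353040 barcodes of 10 to 100 UMIs. Its level of *Hells* was 29.97 CPM, of *Uhrf1* 31.2 CPM, of *Dnmt1* 34.9 CPM and of *Dnmt3a* 53.0 CPM. For *Trim28* free RNA stood at 115 CPM, and 2 of 20 classes were above it. *Uhrf1* was above it in 10 of 20 classes, *Dnmt1* in 12 and *Hells* in 13, whereas *Dnmt3a*, *Tet3* and *Tdg* were above it in 18. *Tet1* and *Tet2* were above it in 17 classes and *Dnmt3b* in 16, at free RNA levels of 15.1, 29.2 and 4.18 CPM. The free RNA level of *Tet3* was 34.5 CPM and that of *Tdg* 36.0 CPM. The lowest class of each of the 9 members thus lay below the free RNA.

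**Figure D1:**
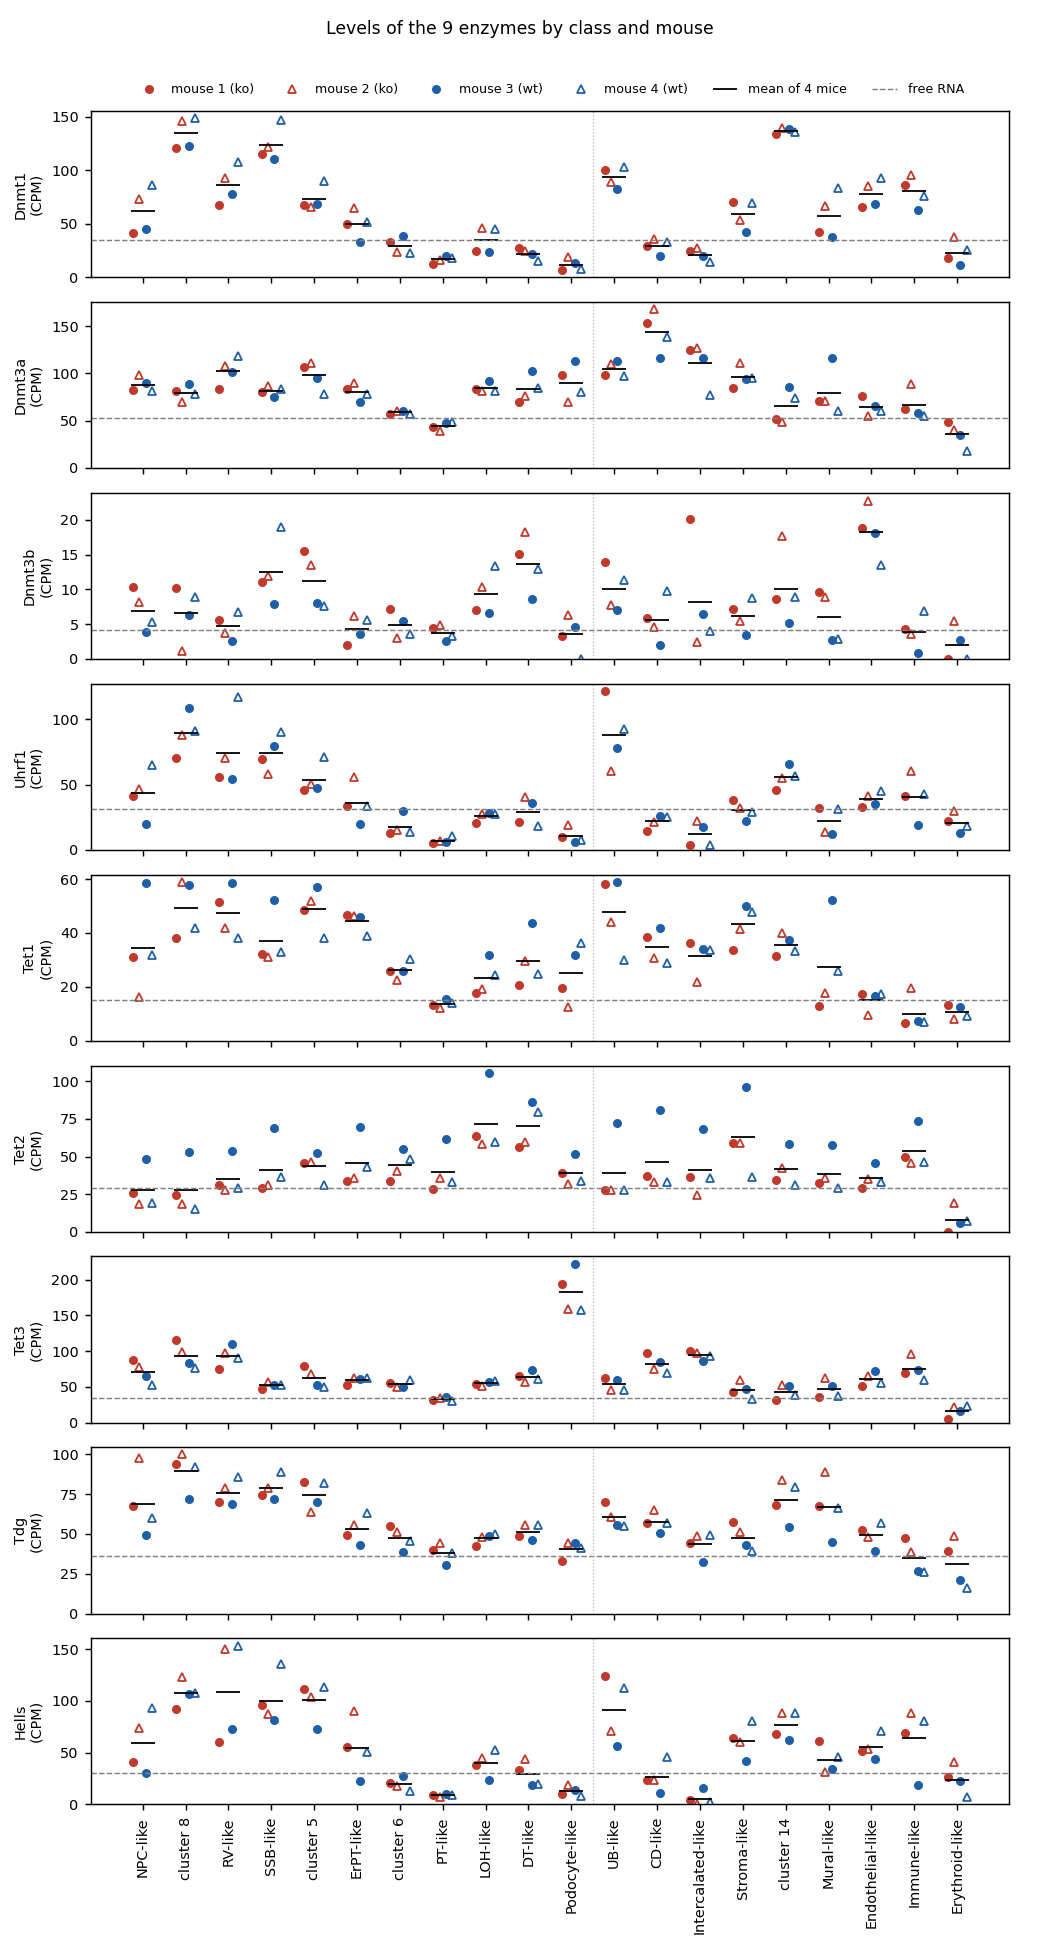
CPM of each of the 9 genes (vertical axes, each on its own linear scale from 0) in 20 classes, with points for the 4 mice, a bar for their mean and a dashed line for free RNA; the dotted line parts classes of the nephron lineage (left) from the others. Tet3 is highest in podocyte-like cells in all 4 mice, and the mouse 3 points for Tet2 are the highest in 19 of 20 classes.

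Similarity of pattern was measured as Pearson's r of log2(CPM + 1) over the 20 class means, among 10474 genes that reached 20 CPM in some class, as a description of points that share libraries. The genes most like *Dnmt1* were *Chaf1a* (r = 0.983), *Lig1* (r = 0.978) and *Topbp1* (r = 0.977). Those most like *Hells* were *Mcm5*, *Gins2* and *Dtl* (r = 0.971 to 0.964), and those most like *Uhrf1* were *Rpa2*, *Exo1* and *Hells* itself (r = 0.948 to 0.941). These are largely genes of DNA replication and repair. The genes nearest to *Dnmt3a* were *Kdm2a*, *Prkab2* and *Zmynd8* (r = 0.936 to 0.898), to *Tet1* *Ttc3*, *Zfp160* and *Gorab* (r = 0.919 to 0.888), to *Tet2* *Sys1*, *Gmppa* and *Tob2* (r = 0.928 to 0.915), to *Tet3* *Mapk6*, *Kmt2d* and *Polb* (r = 0.904 to 0.899) and to *Tdg* *Cbx1*, *Prmt1* and *Hmgn1* (r = 0.947 to 0.924). *Dnmt3b* reached 20 CPM in no class and was not compared. Between members, r was 0.906 for *Dnmt1* and *Uhrf1* and −0.03 for *Dnmt1* and *Tet3*.

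Cells in S or G2/M held several times the maintenance transcripts of G1 cells of the same class and mouse. Phases were called from Seurat's lists without *Uhrf1* and *Hells*, and 7 classes had at least 10 cells of each kind in every mouse. *Uhrf1* was 4.79-fold (cluster 5) to 10.6-fold (RV-like and immune-like) higher in cycling cells. In RV-like cells it averaged 134 ± 29.2 CPM in the 161 cycling cells and 12.6 ± 2.21 CPM in the 218 G1 cells. *Hells* was 3.20-fold (endothelial-like) to 9.32-fold (RV-like) higher in cycling cells and *Dnmt1* 2.56-fold (stroma-like) to 4.87-fold (RV-like). Each of the 3 genes was higher in cycling cells in 28 of 28 pairs of class and mouse. The summed 41 S-phase genes that served for the calls, which exclude the members, were 3.09-fold to 4.41-fold higher. In G1 cells *Uhrf1* had between 5.72 and 18.2 CPM, below its level in free RNA, with 11 UMIs in immune-like G1 cells. *Dnmt1* had between 22.2 and 41.9 CPM. It lay below its level in free RNA (34.9 CPM) in RV-like, ErPT-like and LOH-like cells and in cluster 5. *Hells* had between 14.7 and 31.3 CPM, above its level in free RNA only in cluster 5.

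None of the remaining members was higher in cycling cells in all pairs of class and mouse. *Tdg* was higher in cycling cells in 22 of 28 pairs, with ratios of 0.998 to 1.86. *Tet2* was higher in 5 of 28 pairs, *Dnmt3a* in 8, *Tet3* in 9 and *Tet1* in 11. The median log2 ratio over the 7 classes was −0.42 for *Tet2*, −0.25 for *Dnmt3a*, −0.17 for *Tet3*, 0.03 for *Tet1* and 0.46 for *Dnmt3b*, of which few molecules were counted.

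**Figure D2:**
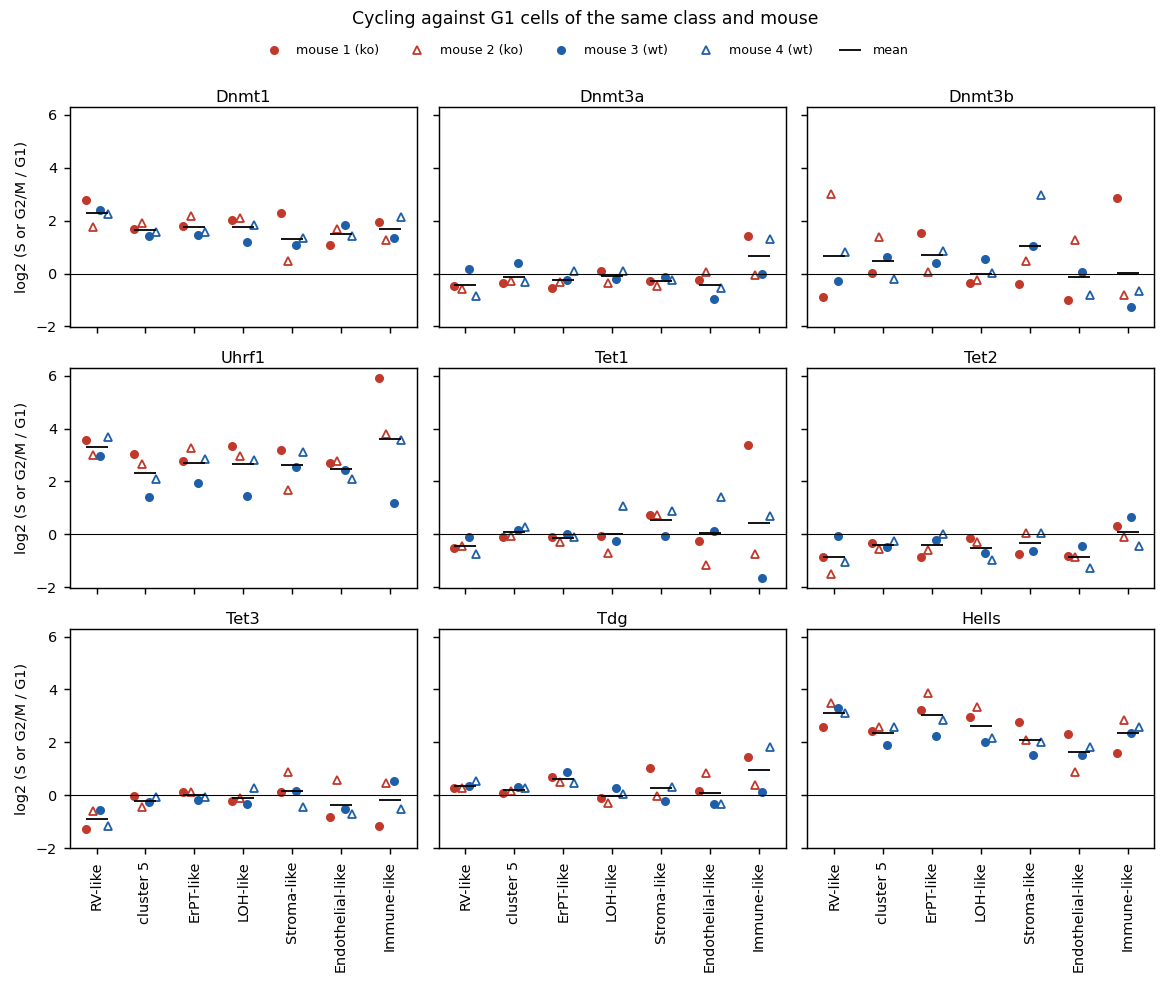
Log2 ratio of CPM + 1 between S or G2/M cells and G1 cells (vertical axes) in 7 classes, with points for the 4 mice and a bar for their mean. All points of Dnmt1, Uhrf1 and Hells lie above 0, whereas each of the other genes has points on both sides of 0.

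No member was called between the genotypes in any class. Of 180 pairs of member and class, 160 passed the filter on low counts, and 0 of these 160 had an adjusted p below 0.05 in edgeR's quasi-likelihood test, where 0.357% of 177974 gene tests over the 20 classes were called, and between 0% and 1.68% within a class. At an unadjusted p below 0.05 there were 13 of 160 members' tests (8.12%) against 6.73% of all tests, and DESeq2 gave 0 adjusted and 5 unadjusted calls. The 20 pairs that did not pass were mostly of *Dnmt3b* (9 classes), *Uhrf1* and *Tet1* (3 each), and of podocyte-like, intercalated-like and erythroid-like cells. A p that misses the threshold does not show equal levels. The 95% interval of the log2 change lay within −1 and 1, which is within a 2-fold change, in 88 of the 153 tests for which it could be given. Of the classes with an interval, it did so for *Tet3* in 17 of 18, for *Dnmt3a* in 13 of 17, for *Tdg* in 14 of 20 and for *Dnmt1* in 13 of 19, but for *Tet2* in 4 of 19 and *Dnmt3b* in 1 of 9.

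In NPC-like cells, where *Trim28* fell by 2.24 on the log2 scale, *Dnmt1* had 41.4 and 73.4 CPM in the ko and 44.6 and 86.5 CPM in the wt mice. *Dnmt3a* had 82.9 and 97.9 against 90.1 and 81.2 CPM, and *Uhrf1* 41.4 and 46.9 against 19.6 and 65.0 CPM. All 3 overlapped between the genotypes. The 95% interval of the log2 change was −1.07 to 0.57 for *Dnmt1* and −1.18 to 0.95 for *Uhrf1*, which does not shut out a 2-fold fall. For *Dnmt3a* it was −0.61 to 0.58. Cells in S or G2/M made up 35.7% and 41.2% of NPC-like cells in the ko and 20.9% and 61.2% in the wt mice. *Tet3* was higher in both ko mice (88.0 and 77.5 CPM) than in the wt mice (65.8 and 52.8 CPM), as it was in cluster 8 (116 and 99.1 against 83.7 and 75.9 CPM). Such a separation upward was found in 25.7% of genes in NPC-like cells and 28.4% in cluster 8, and in 21.7% of tests over all classes. *Tet1* stood at 31.1 and 16.3 CPM in the ko and 58.7 and 31.9 CPM in the wt mice, so that the log2 change was −1.18 ± 0.49 (SE) from 197 UMIs, with an adjusted p = 0.570 in edgeR. It was −0.66 without mouse 2, −0.76 without mouse 3 and −0.35 with cluster 8 joined to these cells, and ranged from −1.65 to −0.35 over 14 settings.

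*Hells* gave the smallest adjusted p of any member. In DT-like cells it had 33.5 and 44.2 CPM in the ko and 18.8 and 19.4 CPM in the wt mice, which did not overlap, as for 19.5% of genes in that class with the ko mice above, and the log2 change was 1.01 ± 0.29 (SE), at an adjusted p = 0.180 in edgeR. In ErPT-like cells it had 55.5 and 90.4 CPM against 22.9 and 50.4 CPM, and the log2 change was 1.05 ± 0.35 (adjusted p = 0.511, edgeR). *Uhrf1* showed the same order in ErPT-like cells, with 33.6 and 55.5 CPM in the ko and 19.7 and 33.5 CPM in the wt mice (log2 change 0.79 ± 0.30, adjusted p = 0.582, edgeR). Single mice moved both values: without mouse 2, 3 or 4 the change of *Hells* was 0.62, 0.60 or 1.65 and that of *Uhrf1* 0.35, 0.48 or 1.16. The cycling share also differed between these mice, and its part in these changes was not tested. It depends on where the clustering placed cycling cells, since the SSB-like cluster held only cells in S or G2/M. S and G2/M cells together made up 27.6% and 37.2% of ErPT-like cells in the ko against 13.7% and 27.0% in the wt mice. Among DT-like cells they made up 16.1% of 56 and 12.5% of 40 in the ko against 8.08% of 99 and 2.50% of 40 in the wt mice. The shares of DT-like cells thus rest on few cycling cells. In G1 cells alone, the log2 change in ErPT-like cells was −0.13 for *Hells* and −0.13 for *Uhrf1* (adjusted p = 0.953 and 0.956, edgeR), and that of *Hells* in DT-like cells was 0.05. These G1 cells were selected for low S-phase genes, so that their changes show no direction. Their levels in ErPT-like cells, 14.7 CPM of *Hells* and 11.7 CPM of *Uhrf1*, lay below those of free RNA, which is not a floor of detection. Among ErPT-like cells in S or G2/M the log2 change was 0.95 for *Hells* (adjusted p = 0.168, edgeR) and 0.68 for *Uhrf1* (adjusted p = 0.457, edgeR).

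The S-phase genes outside the members, from which the phases were called, gave 0 calls in these classes, with 11 of 41 in ErPT-like and 8 of 28 in DT-like cells at an unadjusted p below 0.05 (edgeR), beside 7.61% and 8.1% of all genes there. Their median log2 change was 0.58 in ErPT-like cells, with 39 of 41 genes positive, and 0.48 in DT-like cells, with 25 of 28 positive, beside medians of −0.0043 and −0.0026 over all genes. In LOH-like cells their median was 0.35, with 34 of 39 positive, while the changes of *Uhrf1*, *Dnmt1* and *Hells* were −0.24, 0.05 and 0.16. In cluster 5 it was 0.20, with *Uhrf1* at −0.31, *Dnmt1* at −0.28 and *Hells* at 0.18, and in immune-like cells it was 0.29, with *Uhrf1* at 0.71, *Dnmt1* at 0.31 and *Hells* at 0.71. In SSB-like cells, which were all cycling, it was −0.03, while *Uhrf1* had 69.2 and 57.8 CPM in the ko and 79.2 and 89.97 CPM in the wt mice (log2 change −0.41 ± 0.16, adjusted p = 0.848, edgeR), or −0.27 without mouse 2. This change of *Uhrf1* ranged from −0.54 to −0.27 over 15 settings. Over all cells of a mouse *Uhrf1* was likewise lower, at 29.3 and 35.7 CPM in the ko and 41.5 and 54.1 CPM in the wt mice (log2 change −0.60 ± 0.18, adjusted p = 0.213, edgeR). In such sums over all cells a different mixture of classes and a different level within them cannot be told apart, and the S-phase genes had a median of −0.28 there.

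**Figure D3:**
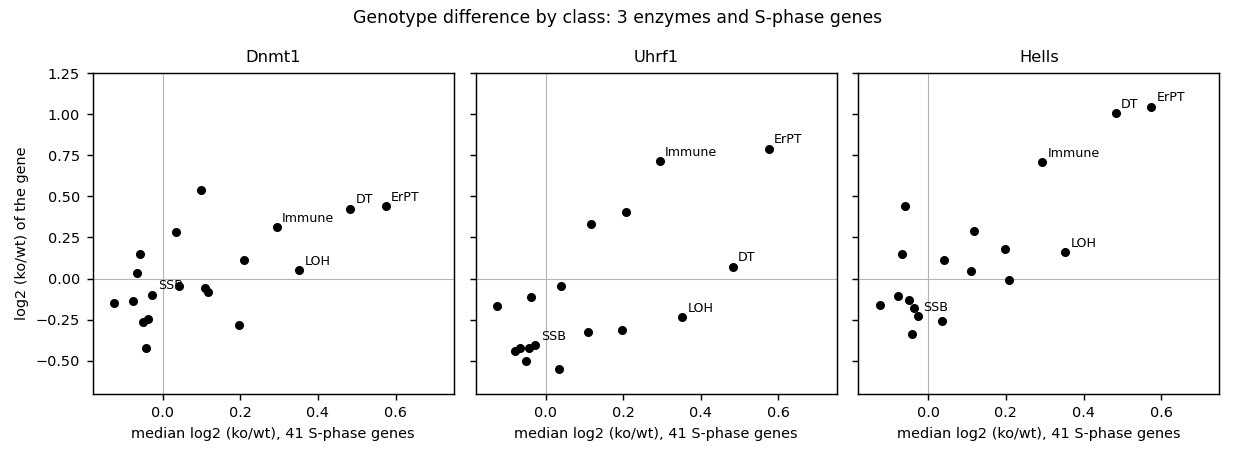
Log2 change (ko over wt) of Dnmt1, Uhrf1 and Hells (vertical axes) against the median log2 change of up to 41 other S-phase genes (horizontal axes), with a point for each class in which the gene was tested. ErPT-like cells have the highest S-phase median, 0.58, and the highest Uhrf1 and Hells changes, 0.79 and 1.05; all points share the same 4 mice.

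*Tet2* was lower in the ko mice in 18 of 19 classes by its log2 change, with a median of −0.54, inside and outside the nephron lineage, where 51.0% of all gene tests were negative. This rested on wt mouse 3. *Tet2* was highest in mouse 3 in 19 of 20 classes, at a median of 1.79 times the median of the other mice. In UB-like cells the ko mice had 28.01 and 27.8 CPM, mouse 3 had 72.4 CPM and mouse 4 had 27.4 CPM, and in CD-like cells the values were 37.2, 33.3, 81.0 and 33.3 CPM in the same order, with those of mouse 3 from cluster 15. The ko mice were thus level with wt mouse 4 there. Without mouse 3, *Tet2* was negative in 10 of 19 classes. Of 3765 genes tested in at least 19 classes, 1.195% were highest in mouse 3 in 19 or more classes, and 0 in any of the other mice. Both ko mice were below both wt mice in 4 of 19 classes for *Tet2* (14.9% of all tests), namely SSB-like, ErPT-like, cluster 6 and DT-like cells. In DT-like cells the levels were 56.6 and 59.8 CPM in the ko and 86.1 and 79.6 CPM in the wt mice, and the log2 change was −0.54 ± 0.21 (adjusted p = 0.406, edgeR), or −0.49 without mouse 3. Without that mouse the change fell in size from −0.83 to −0.26 in SSB-like cells and from −0.75 to −0.29 in ErPT-like cells.

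*Tet1* was negative in 14 of 17 classes, with both ko mice below both wt mice in 6 of 17 against 14.9% of all tests, and was highest in mouse 3 in 11 of 20 classes. In LOH-like cells it had 17.6 and 19.03 CPM in the ko and 32.0 and 24.4 CPM in the wt mice (log2 change −0.66 ± 0.26, adjusted p = 0.577, edgeR), or −0.42 without mouse 3. This change ranged from −1.24 to −0.42 over 16 settings. *Tdg* leaned the other way, with both ko mice above both wt mice in 10 of 20 classes against 21.7% of all tests, a median log2 change of 0.14 and no unadjusted p below 0.05. The order of mice was taken on CPM, without the library scaling (TMM) behind the log2 changes. Erythroid-like cells were among these classes, and there 61% of all genes had both ko mice above both wt mice. Reads of Tdg-ps and of a shorter copy, Gm9855 (99.2% identical over 1194 bases), may have been counted as *Tdg*, so that these values may include a change of the copies. Gm9855 matches bases 162 to 1355 of the 2959 of a *Tdg* transcript. How many reads of the copies were counted as *Tdg* was not tested. The classes share the same 4 mice, so these counts are not independent. In PT-like cells *Tdg* had 40.1 and 44.2 CPM in the ko and 30.3 and 38.3 CPM in the wt mice.

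The other members with an unadjusted p below 0.05 were in unnamed clusters. In cluster 5, *Dnmt3b* had 15.5 and 13.6 CPM in the ko and 8.03 and 7.56 CPM in the wt mice (log2 change 0.83 ± 0.36, adjusted p = 0.507, edgeR), from 75 UMIs. *Tet3* had 78.5 and 68.4 against 52.8 and 50.4 CPM there (log2 change 0.46 ± 0.19, adjusted p = 0.464, edgeR). In cluster 14, *Dnmt3a* had 51.3 and 48.7 CPM in the ko and 85.8 and 74.3 CPM in the wt mice (log2 change −0.75 ± 0.29, adjusted p = 0.661, edgeR). *Dnmt1* had no unadjusted p below 0.05 in 19 classes, and its changes lay between −0.43 and 0.54.

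**Figure D4:**
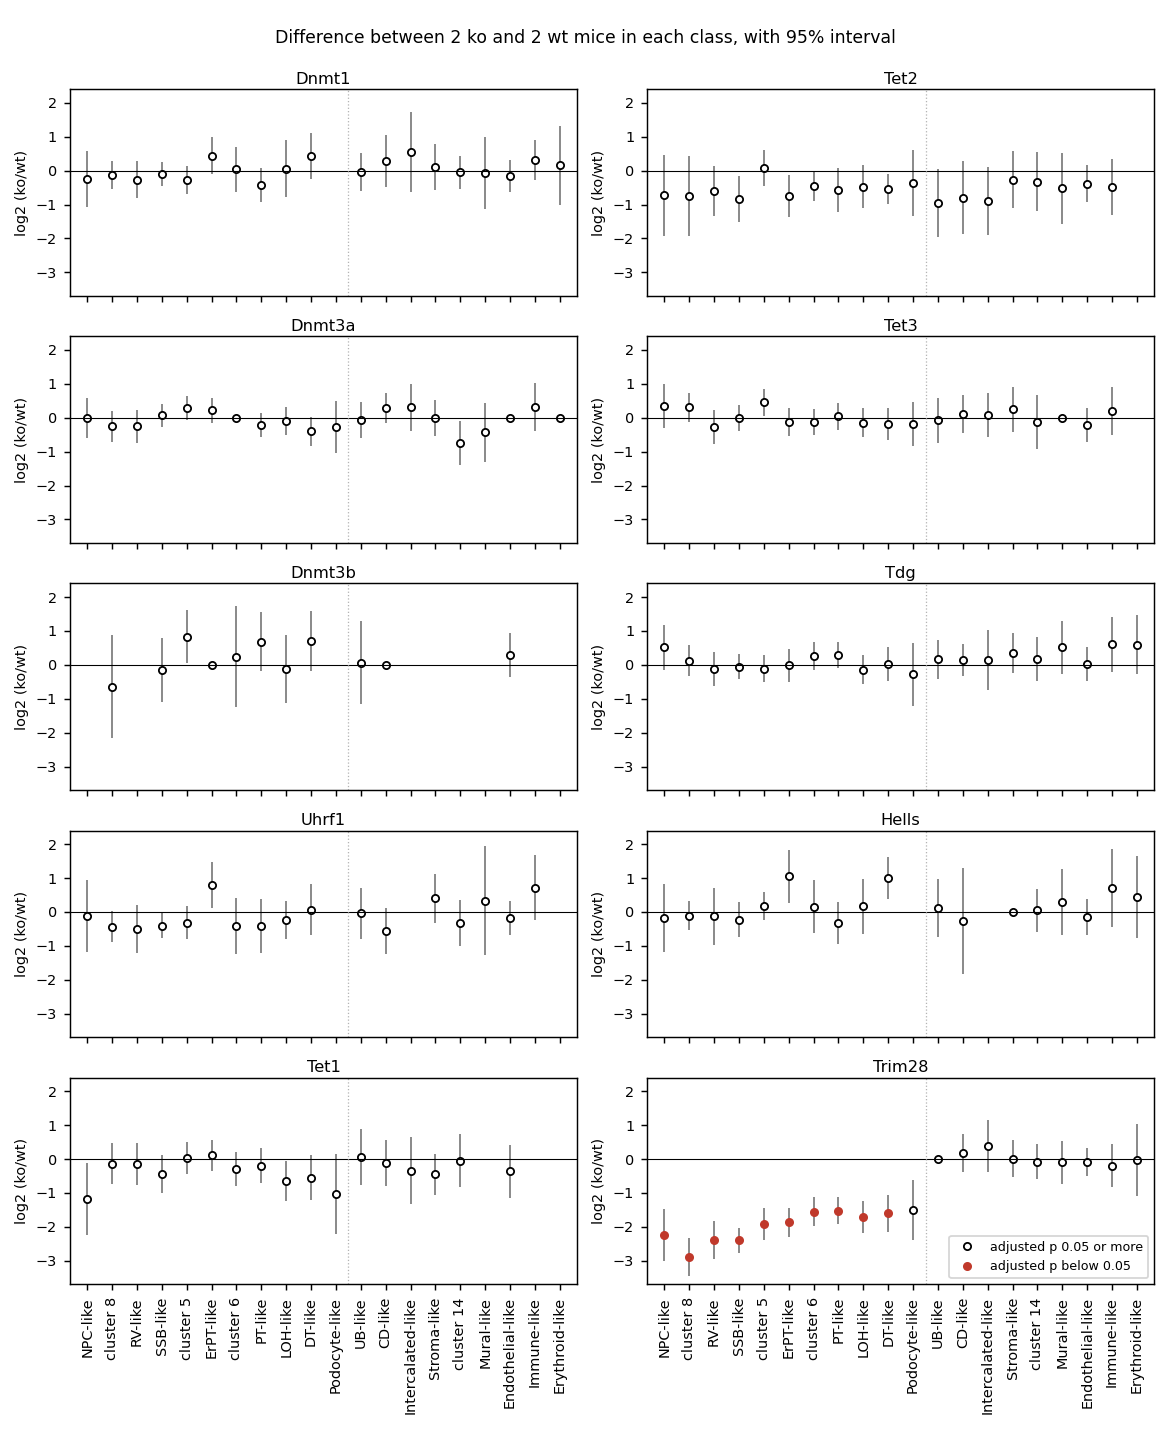
Log2 change between 2 ko and 2 wt mice (points) with its 95% interval (lines) for the 9 members and Trim28 in each class where the gene passed the filter; points without a line had a test statistic near 0, for which no interval was given. Filled points, with an adjusted p below 0.05, occur only for Trim28, in 10 classes left of the dotted line.

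Whether a member's change differed between recombined and other cells was tested as an interaction of genotype and class with the mouse as a block. Of the members, 0 of 8 were called between NPC-like and stroma-like cells (0.393% of all genes called) and 0 of 9 between PT-like and stroma-like cells (0.289% called), and none had an unadjusted p below 0.05. The difference of changes of *Trim28* was −2.27 ± 0.37 and −1.52 ± 0.25 (adjusted p = 0.00128 and 0.0172, edgeR). For *Dnmt1* it was −0.28 ± 0.38 and −0.56 ± 0.37, for *Uhrf1* −0.32 ± 0.47 and −0.77 ± 0.44, and for *Tet1* −0.79 ± 0.52 and 0.27 ± 0.35. The errors of these differences leave changes of this size unresolved with 2 mice a group.

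Genes that work beside the members were counted in the same tests. Of 9 maintenance partners (such as *Pcna*, the replication clamp, and *Usp7*, the deubiquitinase that binds Dnmt1), 0 of 157 tests over the 20 classes were called, with 9 at an unadjusted p below 0.05, beside 6.73% of all tests. Of 10 genes of methyl donor supply (such as *Mat2a*, which makes S-adenosylmethionine) 0 of 137 were called, with 13 unadjusted. Of 20 genes of demethylation and base excision repair 0 of 292 tests were called higher and 1 lower, with 25 unadjusted, and of 9 de novo partners 0 of 128 higher and 1 lower, with 5 unadjusted. Both calls were in cluster 5, where 0.874% of genes were called. *Kdm2b*, a histone demethylase that binds unmethylated CpG islands, had 93.1 and 83.8 CPM in the ko and 206 and 156 CPM in the wt mice (log2 change −1.09 ± 0.17, adjusted p = 0.00483, edgeR). *Gadd45g*, a growth arrest gene linked to demethylation, had 16.5 and 20.1 CPM against 45.5 and 43.9 CPM (log2 change −1.30 ± 0.24, adjusted p = 0.0190, edgeR). Without ko mouse 1 or without ko mouse 2 neither was called (adjusted p of *Kdm2b* 0.131 and 0.382, of *Gadd45g* 0.351 and 0.368, edgeR), with changes of −1.01 to −1.48, and DESeq2 did not call *Gadd45g* (adjusted p = 0.186). The cycling share in cluster 5 was 40.3% and 42.2% in the ko and 35.3% and 60.9% in the wt mice, and among its S or G2/M cells alone neither was called (*Kdm2b* −0.68, adjusted p = 0.331; *Gadd45g* −1.06, adjusted p = 0.574, edgeR).

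Germline genes known to be kept silent in somatic cells by promoter methylation were counted as well. All 18 of the list (such as *Dazl*, *Ddx4* and *Sycp3*) were in the matrix and 0 passed the filter in any class. Their UMIs summed to 77 and 97 in the ko and 186 and 143 in the wt mice, which is 2.99 and 3.12 CPM against 3.52 and 3.99 CPM of all cells. Most of these counts came from *Brdt* (36, 35, 98 and 59 UMIs in mice 1 to 4) and *Tdrd1* (24, 36, 68 and 56 UMIs). A higher level in the ko mice was not detected at this depth.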

How the data were processed

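The authors aligned and counted the single-cell library with Cell Ranger (6.0.0 by the processing notes, 4 by the matrix header) and deposited raw UMI counts for 32285 genes and 12 tags in 3921239 barcodes. The notes name GRCm38, with no role. No column was left unused.

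Cells were called from the total count (observed minimum 6891 UMIs, 21385 cells), filtered on genes detected (200 or more) and on the mitochondrial share of UMIs (10% or less), which left 19272 cells, and assigned to mice with HTODemux on 8 tags. Cells were clustered with Seurat 5.3.0 (3000 variable genes after SCTransform, 30 components, resolution 0.8) and clusters named by marker score with thresholds set after the clusters were seen. *Dnmt1*, *Uhrf1* and *Hells* were among the variable genes. Doublets were removed by several tags (4721 cells). Scrublet marked 7.65% of assigned cells, which were left in and left out only as an alternative. Counts were summed per class and mouse and tested in edgeR 4.0.16 (filterByExpr, TMM, quasi-likelihood, Benjamini-Hochberg over all genes of a class, threshold 0.05), with DESeq2 1.42.0 as an alternative. Each p named as adjusted comes from these fits. The SE in edgeR was taken as the size of the log2 change over the square root of the F statistic. Intervals are 95% from this SE and the fit's degrees of freedom, and none was given where F was near 0. The scripts were tested on simulated counts with known changes. Of 2-fold changes they called 19.6% in NPC-like, 33.3% in RV-like, 51.1% in SSB-like and 69.8% in PT-like cells. Levels across classes and phases were given with no test, because classes and phases were made from the same cells. The CPM is a count per 1000000 UMIs of the summed cells and is not corrected for length, so levels of different genes were not compared. Sequences and starts are from RefSeq and gene positions from GENCODE, both of GRCm38.p6, and all 9 members matched. The members and lists were chosen with earlier results of these data known. Named were the members, *Trim28*, list genes past the test, and the 3 genes most like each member. A few cluster-leading genes, and examples of each list, were named to identify them. The counts of 1 further gene list are not reported here.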

Additional observations from a re-analysis of the deposited data

Results flagged for a closer look

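Of the cells kept, 4508 carried a single tag that the deposited tag list gives to no mouse. They were outside every comparison of the 9 enzymes, and the labels put them in no group.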

How the results depend on the processing

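The count of 0 called pairs of member and class held with DESeq2, both other assignments of cells to mice, Scrublet, clustering without the listed genes or at 0.4 and 1.2, G1 or cycling cells alone, and cluster 8 joined to NPC-like cells, an alternative chosen after seeing the data. With no filter beyond 1 count it was 3 (*Hells* and *Tet2* in ErPT-like, *Tet2* in SSB-like cells), among 3624 called of all genes against 635. Leaving out each mouse in turn gave 0 to 22 calls: 0 without mouse 1 or 2, 2 without mouse 3 (*Hells* in ErPT-like and *Uhrf1* in RV-like cells) and 22 without mouse 4, 9 of them of *Tet2*, where 9.13% of all tests were called. A genotype is then a lone mouse assumed to vary like the other pair, and the cause was not tested. The log2 change of *Hells* in ErPT-like cells ranged from 0.60 without mouse 3 to 1.65 without mouse 4 (edgeR, adjusted p = 0.0383 and 4.23e-17; 0.62 and 0.999 without mouse 2). *Tet2* was negative in 9 of 11 classes with S or G2/M cells alone, which leaves fewer classes, and in 10 to 19 classes when a mouse was left out. In G1 cells, at levels below free RNA, the changes in ErPT-like cells were −0.13 for *Hells* and −0.13 for *Uhrf1* (edgeR, adjusted p = 0.953 and 0.956), which cannot be told from 0. Thinning cells to 6800 UMIs raised *Dnmt1* in cluster 14 from 137 to 152 CPM. Interaction calls were 0 with endothelial-like cells as reference and without each mouse, which says nothing on stability, since this test seldom passes changes of 2-fold with 2 mice a group. Trim28 calls fell from 10 to 6 classes without mouse 1 or 2. No paired analysis was possible because the 4 mice carry no replicate numbers shared between genotypes. With 2 mice a group, 95% intervals shut out a 2-fold change either way in 88 of 153 members' tests.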
